A study of Rattus norvegicus with 16 samples.

Results

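The Ugt1a and Ugt2b genes encode UDP-glucuronosyltransferases, the enzymes of glucuronidation. They were chosen by name and level, as the gene records whose symbol begins with Ugt1a or Ugt2b and that held at least 10 counts in at least 4 of the 8 liver libraries. Of the 32623 gene records, 4 bore such a symbol and all 4 met the count minimum: Ugt1a7c, Ugt2b37, Ugt2b35 and Ugt2b17. The lowest liver count of any of them was 434, and 0 records with such a symbol failed the minimum, so there is no record just outside it. The members were selected on their liver counts, so that these genes are detected there is not a result; the NDEA contrast did not enter the count minimum.

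The libraries came from female Big Blue rats, which are transgenic for a vector with cII and lacI reporter genes in all groups, received at 6 weeks of age and acclimated for 1 week. The NDEA rats were gavaged with N-nitrosodiethylamine, a nitrosamine that liver cytochromes P450 turn into an alkylating agent, at 10 mg/kg/day over 28 days, and the control rats were gavaged on the same schedule at a dose of 0 mg/kg/day. All were sacrificed 3 days after treatment ended. The 16 libraries form 4 groups of 4: NDEA liver, control liver, NDEA marrow and control marrow. The QuantSeq chemistry used counts each RNA once, near its poly(A) tail, so a longer transcript gains no extra reads and levels of different genes can be set side by side as CPM, read counts normalised to library size.

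UDP-glucuronosyltransferases sit in the membrane of the endoplasmic reticulum and join glucuronic acid, donated by UDP-glucuronic acid, to bilirubin, steroids, bile acids, drugs and carcinogen metabolites, which then leave the cell in bile or blood. The Ugt1a enzymes come from a single locus in which alternative first exons are each spliced to the same remaining exons, whereas the Ugt2b enzymes come from separate neighbouring genes. Rat Ugt1a7 is known as a form inducible by ligands of the aryl hydrocarbon receptor (AhR), and human UGT2B17 is known for conjugating androgens.

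That gene structure sets what the counts can tell. In RefSeq (assembly GRCr8, used for names, ends and promoters) the 8 coding Ugt1a genes have 8 different starts but 1 shared end. Of these, 1 of 8 has a record of its own in the counts, Ugt1a7c. In a 3' assay, counts under that name can come from any Ugt1a first exon and are the level of the Ugt1a locus as far as the reads tell. The 9 coding Ugt2b genes in RefSeq have 9 different ends, and 2 of the 9 have a record under the same symbol, Ugt2b37 and Ugt2b35. The symbol Ugt2b17 is listed by RefSeq as a synonym of 2 genes, Ugt2b15 and Ugt2b1. How reads shared between such paralogs were assigned is not given in the sources used here.

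The promoters of the 3 members that RefSeq resolves are shown so that the paralogs can be compared base by base. Of these members, Ugt2b37 was called in liver and its neighbour Ugt2b35 was not. The promoters were matched to the count records by symbol, and whether their sequences bear on the calls was not tested. Each runs from 250 bases before to 50 bases after the gene's start, 5′ to 3′ on the plus strand, from RefSeq (GRCr8). Ugt1a7c lies at chr9:96187132-96187431, Ugt2b37 at chr14:21171886-21172185 and Ugt2b35 at chr14:21208191-21208490. Capitals mark the AhR core in Ugt1a7c and the longest run of bases shared by both Ugt2b promoters.
Ugt1a7c: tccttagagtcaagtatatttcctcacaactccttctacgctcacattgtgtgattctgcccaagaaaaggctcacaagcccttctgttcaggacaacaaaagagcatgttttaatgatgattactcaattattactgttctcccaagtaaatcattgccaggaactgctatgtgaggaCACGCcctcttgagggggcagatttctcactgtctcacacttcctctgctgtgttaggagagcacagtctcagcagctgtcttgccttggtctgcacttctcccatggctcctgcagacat
Ugt2b37: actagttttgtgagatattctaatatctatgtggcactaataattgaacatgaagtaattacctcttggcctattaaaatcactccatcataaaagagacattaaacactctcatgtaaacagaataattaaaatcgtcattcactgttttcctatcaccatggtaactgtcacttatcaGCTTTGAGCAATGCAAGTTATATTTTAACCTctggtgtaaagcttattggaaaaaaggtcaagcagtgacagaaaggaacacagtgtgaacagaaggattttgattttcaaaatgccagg
Ugt2b35: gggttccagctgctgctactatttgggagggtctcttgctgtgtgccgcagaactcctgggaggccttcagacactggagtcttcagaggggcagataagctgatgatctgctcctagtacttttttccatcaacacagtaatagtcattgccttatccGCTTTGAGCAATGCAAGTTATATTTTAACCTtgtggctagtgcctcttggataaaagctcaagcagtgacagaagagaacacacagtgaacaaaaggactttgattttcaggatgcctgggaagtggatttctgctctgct

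The AhR core was searched as GCGTG on both strands. In Ugt1a7c it occurred once, on the minus strand, so that the plus strand reads CACGC, starting 71 bases before the gene's start. The same core was found in 29.7% of the 33469 promoters of this length, in 4 of 7 Ugt1a promoters and in 1 of 9 Ugt2b promoters, with 0 matches in Ugt2b37 and Ugt2b35. An antioxidant response element, the binding site of NRF2, searched as TGACNNNGC on both strands, matched 12.1% of all promoters and 0 of the 7 Ugt1a and 0 of the 9 Ugt2b promoters in the table. The shared Ugt2b run is 31 bases long and starts 70 bases before the start of Ugt2b37 and 91 bases before that of Ugt2b35. It was found in 5 of the 33469 promoters (0.0149%), those of Ugt2b37, Ugt2b35, Ugt2b15, Ugt2b and LOC134478834. Over their whole length the Ugt2b37 and Ugt2b35 promoters were 59.8% identical in a global alignment, against 46.7% for Ugt1a7c with Ugt2b37 and 49.7% for Ugt1a7c with Ugt2b35.

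Liver libraries held 5000844 to 6863592 counts and marrow libraries 2162182 to 5705705. The tissue labels fit the defining markers: Alb stood at 63650 to 95242 CPM in liver and at most 0.483 CPM in marrow, and Mpo at 414 to 622 CPM in marrow and 0 counts in liver. Mitochondrial genes took 20.1% to 22.4% of counts in NDEA liver, against 16.2% to 20.6% in control liver. In liver, 639 of 9668 genes tested were called, at a limma-voom adjusted p under 0.05.

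In liver, Ugt2b37 was called higher with NDEA. This call was lost in 9 of 17 alternatives, which were other settings or fits with 1 library left out. The other members were not called, at log2 fold changes of 0.11 (SE 0.10) for Ugt2b35, -0.06 (SE 0.13) for Ugt2b17 and -0.02 (SE 0.10) for Ugt1a7c. With library totals as the scaling, Ugt2b35 stayed uncalled at 0.22 (SE 0.10), but the interval of its fold, 1.002 to 1.35, lay above 1. The count of members called was 1 of 4 higher and 0 of 4 lower. Among all 9668 genes tested, 2.87% were called higher and 3.74% lower (6.61% in either direction). Without control liver 3, 167 genes were called higher in place of 277. The 4 members' fold changes in log2 CPM, NDEA minus control, had a range of -0.06 to 0.52, beside a median of 0.01 over all genes. These libraries are of whole tissue, in which fewer cells of a type and less RNA per cell cannot be told apart. The labels describe separately treated rats but do not tie a library to a cage.

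Ugt1a7c (ENSRNOG00000018740, chromosome 9, position 95161157, as the deposited table gives it, on an unnamed build) was the most abundant member. Its level was 746, 757, 713 and 797 CPM in NDEA livers 1 to 4, against 922, 679, 756 and 705 CPM in control livers 1 to 4. The groups overlapped, and control liver 1 was the highest of the 8 libraries. The means were 753 ± 34.8 CPM in NDEA liver and 765 ± 109 CPM in control liver (SD, n = 4 each). The log2 fold change was -0.02 (SE 0.10; 95% interval -0.23 to 0.20; limma-voom adjusted p = 0.954), that is, a fold of 0.988 with an interval of 0.852 to 1.15. The sign turned with library totals in place of trimmed means as the scaling, to 0.09, and the interval, not the sign, is what the data give.

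Ugt2b37 (ENSRNOG00000046540, chromosome 14, position 22375955) was the least abundant member in liver. It had 1022, 698, 993 and 983 counts in NDEA livers 1 to 4, against 714, 570, 434 and 633 counts in control livers 1 to 4. After scaling, this was 156, 133, 140 and 147 CPM in the NDEA livers and 111, 99.8, 78.3 and 117 CPM in the control livers. The groups did not overlap: the lowest NDEA liver stood above the highest control liver. Of all genes tested in liver, 6.54% did not overlap and were higher with NDEA, and 12.5% did not overlap in either direction.

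The mean Ugt2b37 level was 144 ± 10.2 CPM in NDEA liver and 102 ± 17.1 CPM in control liver (SD, n = 4 each). The log2 fold change was 0.52 (SE 0.15; 95% interval 0.21 to 0.82), a fold of 1.43 with an interval of 1.16 to 1.77. Its limma-voom adjusted p over all genes was 0.0355. This call was close to the threshold: it held without control liver 1 or control liver 4 and ended when any other liver library was left out, with limma adjusted p = 0.0739 without control 2, 0.177 without control 3, 0.0841 without NDEA 1, 0.0538 without NDEA 2, 0.0537 without NDEA 3 and 0.0819 without NDEA 4. The estimate stayed positive in these fits, at 0.39 to 0.58. With the mitochondrial share of counts as a covariate, an alternative added after the data were seen, the estimate was 0.52 with a larger SE of 0.24 (limma adjusted p = 0.407). That share itself went with treatment, at 20.1% to 22.4% in NDEA livers and 16.2% to 20.6% in control livers. The covariate and the treatment are therefore hard to tell apart in these 8 libraries, here and wherever this covariate is used below.

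Ugt2b35 (ENSRNOG00000001980, chromosome 14, position 22553650) stood at 379, 392, 404 and 429 CPM in NDEA livers 1 to 4, against 349, 355, 387 and 400 CPM in control livers 1 to 4. The groups overlapped, with control livers 3 and 4 inside the NDEA range. The means were 401 ± 21.2 CPM in NDEA liver and 373 ± 24.7 CPM in control liver (SD, n = 4 each). The log2 fold change was 0.11 (SE 0.10; 95% interval -0.11 to 0.32; limma-voom adjusted p = 0.635), and the interval of the fold was 0.927 to 1.25. With library totals as the scaling, the log2 fold change was 0.22 (limma adjusted p = 0.252) and the interval of the fold 1.00 to 1.35.

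Ugt2b17 (ENSRNOG00000001990, chromosome 14, position 22724070) stood at 254, 202, 216 and 208 CPM in NDEA livers 1 to 4, against 239, 270, 213 and 196 CPM in control livers 1 to 4. Both the highest and the lowest of the 8 values were control livers. The means were 220 ± 23.5 CPM in NDEA liver and 229 ± 32.3 CPM in control liver (SD, n = 4 each). The log2 fold change was -0.06 (SE 0.13; 95% interval -0.32 to 0.21; limma-voom adjusted p = 0.866), and it was 0.06 with library totals as the scaling.

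**Figure D1:**
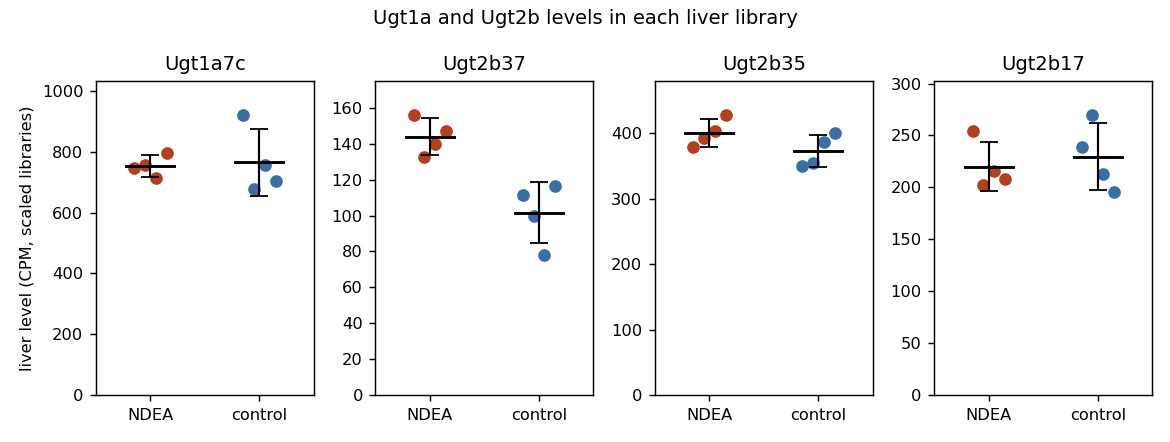
Liver level of each member in CPM (vertical axes, from 0, each panel on its own scale) in the 4 NDEA livers and the 4 control livers; points are libraries in order of replicate number, bars the mean and its SD. For Ugt2b37 the NDEA livers (133 to 156 CPM) lie above the control livers (78.3 to 117 CPM), and for the other 3 members the groups overlap.

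The order of the levels was the same in all 8 liver libraries: Ugt1a7c, then Ugt2b35, then Ugt2b17, then Ugt2b37. No neighbours in this order had overlapping ranges in NDEA liver or in control liver. Ugt1a7c made up 49.6% ± 1.31 of the counts of the 4 members in NDEA liver and 51.9% ± 3.76 in control liver (SD, n = 4 each). Its counts can come from any Ugt1a first exon, so its rank and share set a locus against single Ugt2b records. The share of Ugt2b37 was 9.48% ± 0.518 in NDEA liver, where it ran from 8.93% to 10.2%, and 6.92% ± 1.14 in control liver, where it ran from 5.46% to 8.23%. The share of Ugt2b35 was 26.4% ± 1.23 and that of Ugt2b17 14.5% ± 1.52 in NDEA liver, against 25.5% ± 2.91 for Ugt2b35 and 15.7% ± 2.44 for Ugt2b17 in control liver.

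The 3 Ugt2b members summed to 765 ± 28.5 CPM in NDEA liver (727 to 789) and 704 ± 19.6 CPM in control liver (679 to 725; SD, n = 4 each), a ratio of means of 1.09. This sum does not depend on how reads are split among the 3 Ugt2b records. It rests on the scaling: with library totals alone the ratio was 1.18. That scaling put the median over all genes of the log2 fold change at 0.12, against 0.01 with trimmed means, so all genes moved up with it.

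Ratios of counts within a library need no scaling. After the values above were seen, the log2 ratio was compared between groups for all 6 pairs of members. The ratio of Ugt2b37 to Ugt2b35 was 0.338 to 0.413 in NDEA livers and 0.202 to 0.319 in control livers, a difference in mean log2 ratio of 0.41. The ratio to Ugt2b17 was 0.615 to 0.709 in NDEA livers and 0.367 to 0.597 in control livers, a difference of 0.57. The ratio to Ugt1a7c was 0.175 to 0.209 in NDEA livers and 0.104 to 0.165 in control livers, a difference of 0.53.

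In each of these 3 pairs the groups did not overlap. The ratios share Ugt2b37, already seen not to overlap between groups, and are given as a description with no test, so it is not shown that Ugt2b37 differed from the other members in its response. In the 3 pairs without Ugt2b37 the groups overlapped. Their differences in mean log2 ratio were 0.16 for Ugt2b35 over Ugt2b17, 0.12 for Ugt2b35 over Ugt1a7c and -0.04 for Ugt2b17 over Ugt1a7c.

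**Figure D2:**
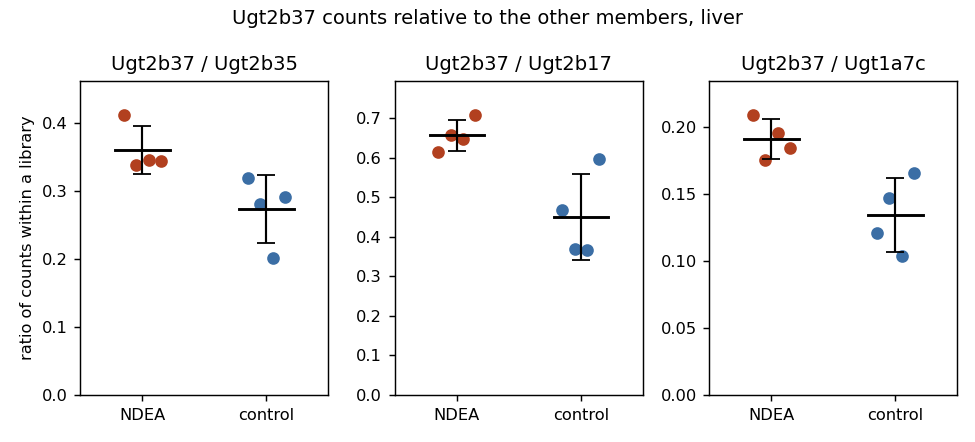
Ratio of Ugt2b37 counts to those of Ugt2b35, Ugt2b17 and Ugt1a7c within each liver library (vertical axes, from 0), NDEA livers left of control livers; points are libraries, bars the mean and its SD. In each panel the 4 NDEA livers lie above the 4 control livers (the nearest values for Ugt2b17 are 0.615 in NDEA liver and 0.597 in control liver).

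In bone marrow the Ugt2b members were not detected. Ugt2b37, Ugt2b35 and Ugt2b17 had 0 counts in all 8 marrow libraries, which allows up to 0.503 to 1.26 CPM per library (3 counts, for counting error only). Ugt1a7c was detected in marrow, at 41.0, 55.5, 55.1 and 39.5 CPM in NDEA marrows 1 to 4, against 52.0, 70.0, 39.2 and 51.5 CPM in control marrows 1 to 4. The groups overlapped, with means of 47.8 ± 8.69 CPM in NDEA marrow and 53.1 ± 12.7 CPM in control marrow (SD, n = 4 each). The log2 fold change was -0.15 (SE 0.27; 95% interval -0.71 to 0.41; limma-voom adjusted p = 0.813). In marrow 0 of 9239 genes (0%) were called by limma-voom, with 1336 at an unadjusted p under 0.05, although 318 were called without control marrow 3. Ordered by level, NDEA liver and control liver came first for Ugt1a7c and did not differ beyond their spread, and NDEA marrow and control marrow came after and did not either; CPM were scaled within each tissue.

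Whether the NDEA effect on Ugt1a7c differed between tissues was asked by the treatment-by-tissue term over all 16 libraries. Each dose group held 6 rats, and the labels do not say which liver and marrow libraries came from the same rat. The fit treated the 16 libraries as independent, so its errors take no account of rats that gave both tissues. The liver effect minus the marrow effect was 0.19 in log2 (SE 0.28; 95% interval -0.38 to 0.76; limma-voom adjusted p = 0.786), where 257 of 11261 genes (2.28%) were called, 2.07% with the higher effect in liver. That count was 102 without control liver 4, 163 without control liver 3 and 509 without control marrow 3, and Ugt1a7c was called in none of these fits. For the Ugt2b members this term rests on 0 counts in marrow and is not given.

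The genes whose liver profile was nearest that of Ugt2b37 were found by the root mean square difference of log2 CPM, each centred on its own mean over the 8 liver libraries, among 9667 other genes. The nearest were RGD1562378 (ENSRNOG00000054017; 0.117), Ttr, the thyroxine carrier transthyretin (0.130), and Agxt2, a mitochondrial aminotransferase (0.132). Their log2 fold changes were 0.58, 0.43 and 0.62. The other members lay farther from Ugt2b37, with differences of 0.283 for Ugt2b35, 0.329 for Ugt1a7c and 0.355 for Ugt2b17. The NDEA contrast is part of this likeness, which is a description of 8 libraries.

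Around Ugt2b37 on chromosome 14, the deposited table places 1 more UDP-glycosyltransferase, Ugt2a3 (position 22192970), whose human counterpart is known for conjugating bile acids. It was the one tested gene of the list of other UDP-glycosyltransferases, in which Ugt3a2 and Ugt8 had 0 counts in liver. Ugt2a3 had a mean of 123 ± 20.6 CPM in NDEA liver and 130 ± 49.8 CPM in control liver (SD, n = 4 each), and the groups overlapped. Its log2 fold change was -0.02, with an SE of 0.19 (limma-voom adjusted p = 0.970).

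Of 12 tested genes of cofactor supply and conjugate hydrolysis, 1 was called higher and 0 lower, which with so few genes is near the shares among all genes (2.87% higher and 3.74% lower), with a median log2 fold change of 0.24. The called gene was Nme1, a nucleoside diphosphate kinase that makes UTP, at 68.7 ± 9.83 CPM in NDEA liver and 42.1 ± 10.9 CPM in control liver (SD, n = 4 each; log2 fold change 0.71, limma-voom adjusted p = 0.0378). Its call was kept without control 1 or NDEA 4 and ended without any other liver library, at limma adjusted p of 0.0507 to 0.146. Ugp2, which makes UDP-glucose, averaged 153 CPM in NDEA liver and 128 CPM in control liver (limma adjusted p = 0.428). Ugdh, which oxidises UDP-glucose to UDP-glucuronic acid, averaged 163 CPM in NDEA liver and 141 CPM in control liver (limma adjusted p = 0.496). Slc35d1, which carries UDP-glucuronic acid into the endoplasmic reticulum, averaged 23.6 CPM in NDEA liver and 24.9 CPM in control liver (limma adjusted p = 0.955).

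Of 11 tested conjugate and drug transporters, 0 were called higher and 3 lower (2.87% and 3.74% among all genes), with a median log2 fold change of -0.44. With the replicate number as a block, 1 was called higher and 5 lower, and 5 were called lower without NDEA liver 4. Slco1b2, which takes bilirubin, bile acids and drugs up into hepatocytes, had a mean of 1209 ± 124 CPM in NDEA liver and 2533 ± 249 CPM in control liver (SD, n = 4 each; log2 fold change -1.06, limma-voom adjusted p = 4.83e-08). Abcb11, the bile salt export pump, fell by 0.90 and Slco1a4, another uptake transporter, by 0.71 on the log2 scale (limma adjusted p = 1.30e-05 and 3.21e-04). Abcc2, which exports glucuronides into bile, averaged 269 ± 48.3 CPM in NDEA liver and 365 ± 63.3 CPM in control liver (SD, n = 4 each; log2 fold change -0.44, limma adjusted p = 0.0648). Abcb1a, a P-glycoprotein drug exporter named after its values were seen, averaged 504 ± 19.5 CPM in NDEA liver and 390 ± 96.9 CPM in control liver (SD, n = 4 each; log2 fold change 0.40, limma adjusted p = 0.0629). It was called higher with library totals (limma adjusted p = 0.0152), with the block (0.0411) and without control liver 2 (0.00173), and its estimate was -0.04 with the mitochondrial share as a covariate.

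Among 20 tested genes of factors and receptors that regulate Ugt transcription, 0 were called higher and 4 lower (2.87% and 3.74% among all genes), with a median log2 fold change of -0.38. Prlr, the prolactin receptor, had a mean of 89.0 ± 17.4 CPM in NDEA liver and 436 ± 149 CPM in control liver (SD, n = 4 each; log2 fold change -2.22, limma-voom adjusted p = 4.42e-07). Onecut1, a liver-enriched transcription factor, fell by 1.04 and Ghr, the growth hormone receptor, by 0.97 on the log2 scale. The fourth, Hnf4a, a nuclear receptor of hepatocytes named here after its values were seen, averaged 207 ± 19.9 CPM in NDEA liver and 349 ± 55.4 CPM in control liver (SD, n = 4 each; log2 fold change -0.75, limma adjusted p = 4.29e-04). With the mitochondrial share as a covariate, 1 regulator was called lower in place of 4: Prlr was still called at -1.32, while Onecut1 (limma adjusted p = 0.0731), Ghr (0.0601) and Hnf4a (0.234) were not.

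The RNA levels of the 4 sensors known to induce Ugt1a genes did not pass the test. Whether the sensor proteins were active was not measured. Ahr averaged 82.7 CPM in NDEA liver and 112 CPM in control liver (limma-voom adjusted p = 0.0946). Nfe2l2, which encodes NRF2, averaged 176 CPM in both groups (limma adjusted p = 0.984). Nr1i3, which encodes the nuclear receptor CAR, averaged 20.5 CPM in NDEA liver and 13.6 CPM in control liver (limma adjusted p = 0.346), and Nr1i2, which encodes PXR, 80.2 CPM in NDEA liver and 85.5 CPM in control liver (limma adjusted p = 0.899).

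Among the targets of these sensors several genes passed the test. Of 17 tested NRF2 targets, 9 were called higher and 0 lower (2.87% and 3.74% among all genes; 5 higher with the mitochondrial share as a covariate), with a median log2 fold change of 0.56. Ephx1, microsomal epoxide hydrolase, had a mean of 1644 ± 75.0 CPM in NDEA liver and 417 ± 53.3 CPM in control liver (SD, n = 4 each; log2 fold change 1.98, limma-voom adjusted p = 3.09e-12). Gstp1, a glutathione transferase, rose by 3.71 and Akr7a3, an aldehyde reductase, by 2.40 on the log2 scale. Nqo1, a quinone reductase counted under both NRF2 and AhR, rose by 1.48.

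Of 4 tested AhR targets, 2 were called higher and 1 lower (2.87% and 3.74% among all genes; 0 higher with the mitochondrial share as a covariate), with a median log2 fold change of 0.88. Cyp1a1 had 284 counts in the 4 NDEA livers and 3 counts in the 4 control livers, a ratio of CPM of 85.4 with an exact interval of 28.9 to 417 that covers counting error only, not the spread between rats, which ran from 4.95 to 16.7 CPM in NDEA livers. It reached the filter in 4 NDEA livers and 0 control livers, so it could be tested only because it was high with NDEA. Its call (limma-voom adjusted p = 0.0229) ended when any control liver was left out, at limma adjusted p of 0.0624 to 0.111. Cyp1a2, the other main AhR-inducible P450 of liver, fell to 821 ± 171 CPM in NDEA liver, against 1895 ± 209 CPM in control liver (SD, n = 4 each; log2 fold change -1.23, limma adjusted p = 1.73e-07).

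Targets of CAR and PXR split: of 10 tested, 3 were called higher and 3 lower (2.87% and 3.74% among all genes; 1 higher with the mitochondrial share as a covariate), with a median log2 fold change of -0.32. Aldh1a1, a retinal dehydrogenase, rose by 1.67, Cyp3a18, a P450, by 1.19 and Por, the reductase that feeds electrons to P450s, by 0.77 on the log2 scale. Cyp3a9, another P450, had a mean of 1.02 CPM in NDEA liver and 28.0 CPM in control liver, with 26 counts in the NDEA livers and 644 in the control livers. It reached the filter in 1 NDEA liver and 4 control livers, and so was tested only because it was high in controls. Cyp2c6v1 fell by 0.69 and Slco1a4, already counted among the transporters, by 0.71.

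Sulfotransferases, which conjugate many of the same substrates with sulfate, also split: of 7 tested, 2 were called higher and 1 lower (2.87% and 3.74% among all genes), with a median log2 fold change of -0.02. Sult1e1, estrogen sulfotransferase, had 115, 12, 54 and 37 counts in NDEA livers 1 to 4 and 0 counts in all 4 control livers. It was at least 63.5-fold higher with NDEA, against a floor of 3 counts over the control group. With 0 counts in the controls it could pass the filter only through the NDEA livers, and its call (limma-voom adjusted p = 0.0161) ended when any control liver was left out, at limma adjusted p of 0.0596 to 0.0786. Sult1b1 averaged 508 ± 41.6 CPM in NDEA liver and 339 ± 95.7 CPM in control liver (SD, n = 4 each; log2 fold change 0.62, limma adjusted p = 0.00607). With the mitochondrial share as a covariate, its log2 fold change was 0.25 and the call was lost (limma adjusted p = 0.722), as was that of Sult1e1 (0.0994). Sult2a2, which sulfates hydroxysteroids and bile acids, fell by 1.03 on the log2 scale.

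A list of genes compiled as markers of preneoplastic liver foci, a setting in which Ugt activity is known to be raised in rats, was also counted. Of 10 tested, 6 were called higher and 0 lower (2.87% and 3.74% among all genes; 3 higher with the mitochondrial share as a covariate), with a median log2 fold change of 3.03, and 4 of the 6 are the NRF2 targets Gstp1, Ephx1, Akr7a3 and Nqo1. The others were Cdkn1a, an inhibitor of the cell cycle that is not particular to foci, with a log2 fold change of 4.02, and Gpx2, a glutathione peroxidase, with 3.66, which reached the filter in 4 NDEA livers and 1 control liver. Not called were Ggt1 (376 counts in the NDEA livers and 30 in the control livers), Akr1b8 (221 and 16), Afp (log2 fold change 1.06) and Gpc3 (0.07). The median of the list thus rests in part on genes with few counts in controls, and is not a measure of foci. Beside the genes of this list, the log2 fold change had an interval of -0.23 to 0.20 for Ugt1a7c and of 0.21 to 0.82 for Ugt2b37. These are RNA values of whole liver and do not measure Ugt activity. With the mitochondrial share as a covariate, 11 of the 23 pathway genes followed across settings were no longer called and 0 changed direction. Since this share went with treatment, a call lost in that fit does not show that treatment had no effect.

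Markers of other liver cell types moved with treatment in part, beside the members' values. Among all genes tested, 2.87% were called higher and 3.74% lower, and each marker list holds few genes. Stellate markers summed to 402 to 468 CPM in NDEA livers and 202 to 312 CPM in control livers, with 2 of 6 tested called higher. Col3a1, 1 of these 2, alone averaged 299 CPM in NDEA liver and 177 CPM in control liver. Cholangiocyte markers summed to 24.3 to 40.5 CPM in NDEA livers and 6.64 to 16.8 CPM in control livers, with Krt19 at 0 counts and 0 of 2 tested called. Lymphocyte markers summed to 9.44 to 15.9 CPM in NDEA livers and 1.40 to 6.67 CPM in control livers, with 0 of 1 tested called. Kupffer cell and macrophage markers summed to 436 to 576 CPM in NDEA livers and 436 to 543 CPM in control livers, with 1 of 8 called higher and 1 lower, and endothelial markers to 220 to 257 CPM in NDEA livers and 224 to 256 CPM in control livers, with 0 of 4 called. Hepatocyte markers, of the cells that hold most liver Ugt, summed to 112451 to 133276 CPM in NDEA livers and 118546 to 145047 CPM in control livers, with 3 of 8 called higher and 1 lower. Most of this sum was Alb, the marker called lower, at a mean of 70029 CPM in NDEA liver and 83520 CPM in control liver. Those called higher were Apoa1, Ttr and Serpina1. Erythroid markers summed to 1089 to 3845 CPM in NDEA livers and 1536 to 3275 CPM in control livers, with 0 of 4 called. The marrow myeloid markers Mpo, Elane, Prtn3 and Ltf had 0 counts in liver, and 0 of 2 tested were called. The part of these cells in the Ugt2b37 difference was not tested.

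**Figure D3:**
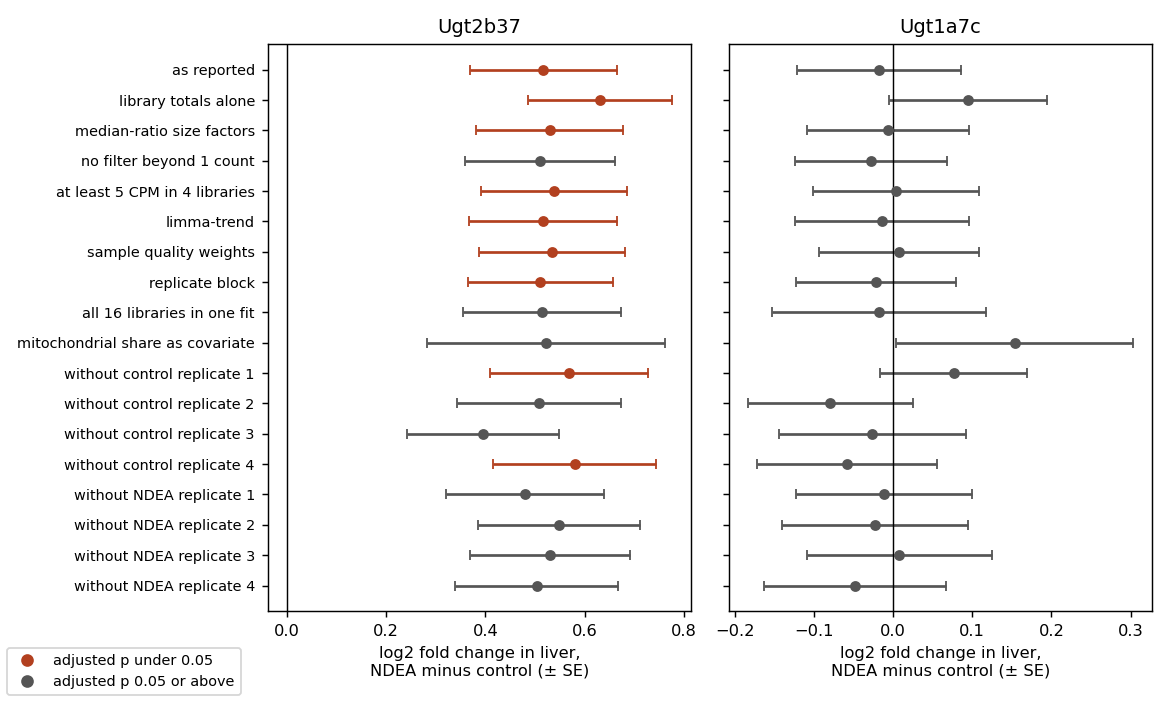
Log2 fold change in liver, NDEA minus control (horizontal axes, each on its own scale), with its SE, for Ugt2b37 and Ugt1a7c under each processing setting and with each liver library left out (rows). Ugt2b37 stays between 0.39 and 0.63 with the call lost in 9 of 17 alternatives, and Ugt1a7c stays between -0.08 and 0.15 with 0 calls.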

How the data were processed

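RNA of 8 liver and 8 marrow libraries was measured by 3' sequencing. Per the submitters' processing notes, the authors used STAR and DESeq2, with no version given; for the counting tool, build and annotation, none is given in the sources used here. The deposited table holds read counts per gene and is damaged: 15579 of its 32635 lines were single quoted cells and 12 records were broken over 2 lines. These were rejoined into 32623 records with 16 counts each, and 16313 of 16313 deposited sets of group totals equalled the sums. Because the columns as deposited, before rejoining, did not pass as plain counts, their unit was recorded as other, and limma-voom was used.

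A gene was tested where 4 or more libraries reached the CPM that 10 counts make in the median library and its counts summed to 15 or more. Within each tissue, scaling used TMM factors (trimmed means of M values, with trims of 0.3 and 0.05). The treatment term was tested on log2 CPM (prior 0.5 counts), with Benjamini-Hochberg adjustment over all genes tested. Intervals are 95%. R 4.3.3, limma 3.58.1, scipy 1.17.1 and Biopython 1.88 were used, and the fit was tested on simulated data. Pathway lists (9, with 108 of 123 entries matched to a record by symbol) and marker lists (8, with 51 of 54) were counted. Members and lists were chosen with earlier results of these data known. From the pathway lists, called genes were named up to 3 in each direction, and further genes of the lists were given as examples with their values known.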

Additional observations from a re-analysis of the deposited data

Results flagged for a closer look

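1 of 56 groups of 4 libraries checked, over the members and the named pathway genes, held a library far from the others; chance flags about 5% of such groups. Gpx2 stood at 1.56, 1.40, 1.62 and 6.27 CPM in control livers 1 to 4, and the gap below control liver 4 was 0.954 of the group's whole range. None of the groups of Ugt1a7c, Ugt2b37, Ugt2b35 and Ugt2b17 was flagged in liver, nor those of Ugt1a7c in marrow.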

How the results depend on the processing

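The log2 fold change of Ugt2b37 stayed positive in all 17 alternatives, but its call was lost with no filter beyond 1 count (0.51, limma adjusted p = 0.0551), with all 16 libraries in one fit (0.51, 0.0707) and with a covariate for mitochondrial share, added after the data were seen (0.52, 0.407), so that 0 members were called higher in each of these; leaving out 1 library gave 0.39 to 0.58 and 0 to 1 members called. Ugt2b35 stayed uncalled and positive, at 0.22 with library totals. Ugt1a7c changed sign with library totals (0.095), the 5 CPM filter (0.0039), quality weights (0.0075) and the covariate (0.15), and ran from -0.079 to 0.077 with 1 library left out. Ugt2b17 changed sign with library totals (0.060), and ran from -0.13 to 0.020 with 1 library left out. The summed Ugt2b ratio moved to 1.18 with library totals. Ugt1a7c in marrow ran from -0.30 to 0.012 with 1 library left out. Of the 6 within-library log2 ratios, those with Ugt2b37 stayed positive, Ugt2b35 over Ugt1a7c ran from -0.0053 to 0.19 and Ugt2b17 over Ugt1a7c from -0.12 to 0.095.

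Genes called lower in liver numbered 239 with library totals, 225 with all 16 libraries and 95 with the covariate, which left 53 called higher; with 1 library left out, 167 to 265 were called higher and 269 to 377 lower. In marrow, 289 were called with the replicate block and 0 to 318 with 1 library left out, the 318 without control marrow 3. For the treatment-by-tissue term, 102 to 509 were called with 1 library left out (102 without control liver 4, 163 without control liver 3, 509 without control marrow 3). Same-numbered NDEA and control livers deviated from their group means with correlations of -0.02 to 0.04 over 4757 genes. No pairing of NDEA with control livers by number was seen, and same-numbered liver and marrow libraries were not compared. The replicate block left Ugt2b37 at 0.51 (limma adjusted p = 0.0275) and changed no member's call. Across the pathway lists, the covariate left 1 regulator called lower in place of 4, 5 NRF2 targets higher in place of 9 and 0 AhR targets higher in place of 2, and the block called 1 transporter higher and 5 lower in place of 0 and 3. The covariate itself went with treatment, and the cause of these changes was not tested. The planned count-model test was not run, a choice made because the columns as deposited, before rejoining, did not pass as plain counts.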

Other observations

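The deposited table places Sult1e1 (chromosome 14, position 22072024) and Sult1b1 (position 22142364) beside the Ugt2b members on the same stretch of the chromosome, before Ugt2a3 (22192970), Ugt2b37 (22375955), Ugt2b35 (22553650) and Ugt2b17 (22724070). Along this order the log2 fold changes in liver, NDEA minus control, were 0.62 for Sult1b1, -0.02 for Ugt2a3, 0.52 for Ugt2b37, 0.11 for Ugt2b35 and -0.06 for Ugt2b17, with Sult1e1 at 0 counts in the control livers. After them came Ly6c (position 22868515) with 1.19 (SE 0.81) and RGD1559459 (22937421) with -0.41 (SE 0.37), both uncalled. Ythdc1, which encodes a reader of methylated adenosine in RNA, followed (position 22971836) with -0.24 (limma-voom adjusted p = 0.477). This stretch was looked at after the values were seen.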
